A study of Mus musculus with 3 samples.

Results

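The subject here is a group of 9 genes that restrain signalling through the kinase ERK: the dual-specificity phosphatases Dusp1, Dusp4, Dusp5 and Dusp6, the Sprouty genes Spry1, Spry2 and Spry4, and the Sprouty-related genes Spred1 and Spred2. They were chosen by name, and all 9 had a row in each of the 3 count tables, which together list 17775 genes. Their transcripts were counted in droplet libraries of dissociated cells of the mouse pituitary intermediate lobe (IL), with 1 library per genotype. Every animal carried the allele Sox9iresCreERT2/+, a tamoxifen-inducible Cre recombinase driven from Sox9, a gene active in stem cells (SCs), and the methods add a Rosa26ReYFP/+ reporter. WT had no further mutation. P27NULL had the genotype p27-/- besides, which removes the cell cycle inhibitor p27 (gene Cdkn1b) from all cells. S2CK was p27-/- as well and carried Sox2fl/+, in which Cre can delete 1 copy of Sox2. All mice were 3 months old and received tamoxifen, WT included, at 4 weeks of age by the labels and at birth by the study's text, a difference that could not be settled here. Each library was made from pooled animals. P27NULL set beside WT addresses the loss of p27, in SCs and in melanotrophs, and S2CK set beside P27NULL a lower dose of Sox2 in SCs.

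ERK is the last kinase of a cascade that runs from growth factor receptors through Ras and MEK. When it is active it switches on immediate early genes, such as Fos and Egr1, and also the genes of its own inhibitors. The DUSP proteins remove phosphate from the kinase, DUSP1 and DUSP5 in the nucleus and DUSP6 in the cytoplasm, whereas Sprouty and SPRED proteins act higher up, near Ras. Their transcripts are therefore widely read as a record of recent ERK activity, although Dusp1 also answers to stress and to cAMP. Melanotrophs, the main endocrine cells of the IL, translate Pomc into a hormone precursor, and SCs line the cleft that borders the lobe.

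The tables held 2020, 4153 and 3488 cell barcodes for WT, P27NULL and S2CK, with 8332285, 15588317 and 19239147 UMIs (unique molecular identifiers, 1 for each captured transcript) and a median of 3642.5, 2740 and 4906.5 UMIs per cell. Pairs of libraries shared 2 to 4 barcodes. Levels are given in CPM, the UMIs of a gene per 1000000 UMIs of the summed cells. Over all cells of WT, P27NULL and S2CK, Cdkn1b was counted at 41.3, 33.9 and 17.7 CPM. The sources used here do not say which part of the gene the p27-/- allele lacks, so this 3′ count does not check the labels. Sox2 in SC-like cells stood at 271, 308 and 132 CPM. The table of WT had no Xist row, and that of S2CK had none for 4 Y-linked genes, although the study lists a pool of both sexes for it. P27NULL held 766 cells with Xist and no Y-linked UMI and 3370 without Xist. Genotype therefore cannot be told apart from animal, library or, in part, sex. For S2CK against WT, by these genes, genotype and sex cannot be separated at all. With 1 library per genotype no difference between genotypes was tested, and each is given with an exact 95% interval in square brackets, which covers counting error only.

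Clusters were named from marker genes, with the 9 genes and their pathway left out of the clustering. SC-like cells numbered 139, 105 and 91 and melanotroph-like cells 1279, 3533 and 3009 in WT, P27NULL and S2CK. All 6 SC markers were detected in the SC-like sums of each library, at a summed 9663, 8377 and 5132 CPM, against 26.1 to 31.3 CPM in melanotroph-like cells. All 7 melanotroph markers were detected in melanotroph-like cells, at 5456, 7272 and 3543 CPM. SC-like cells also held markers of other cells. The melanotroph list reached 857, 672 and 564 CPM there, the gonadotroph list 4049, 891 and 23.2 CPM, the mural cell list 118, 345 and 276 CPM, and the list for pituicytes (glia of the posterior lobe) 121, 129 and 174 CPM. Of the 91 SC-like cells of S2CK, 9 grouped with pituicytes when all libraries were clustered together, against 1 in P27NULL and 0 in WT. Pomc in SC-like cells was at 18.9%, 10.2% and 14.3% of its level over the whole library, which sets an upper bound on transcripts brought in from broken cells. The part of these cells in the values below was not tested, except where a value without them is given.

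Depth differed among the genes. Dusp1 had 7703 UMIs in all cells together, Spry2 2949, Spry1 1047, Spred1 376, Spred2 257, Dusp5 223, Dusp6 176, Spry4 102 and Dusp4 11. A ratio between 2 libraries was read only for genes with at least 20 UMIs in both together, and was counted as past the fold rule when it was at least 1.5-fold and its interval left out 0 on the log2 scale. In SC-like cells 4 of the 9 genes met the minimum in each comparison, and in melanotroph-like cells 8 did, all but Dusp4.

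**Figure D1:**
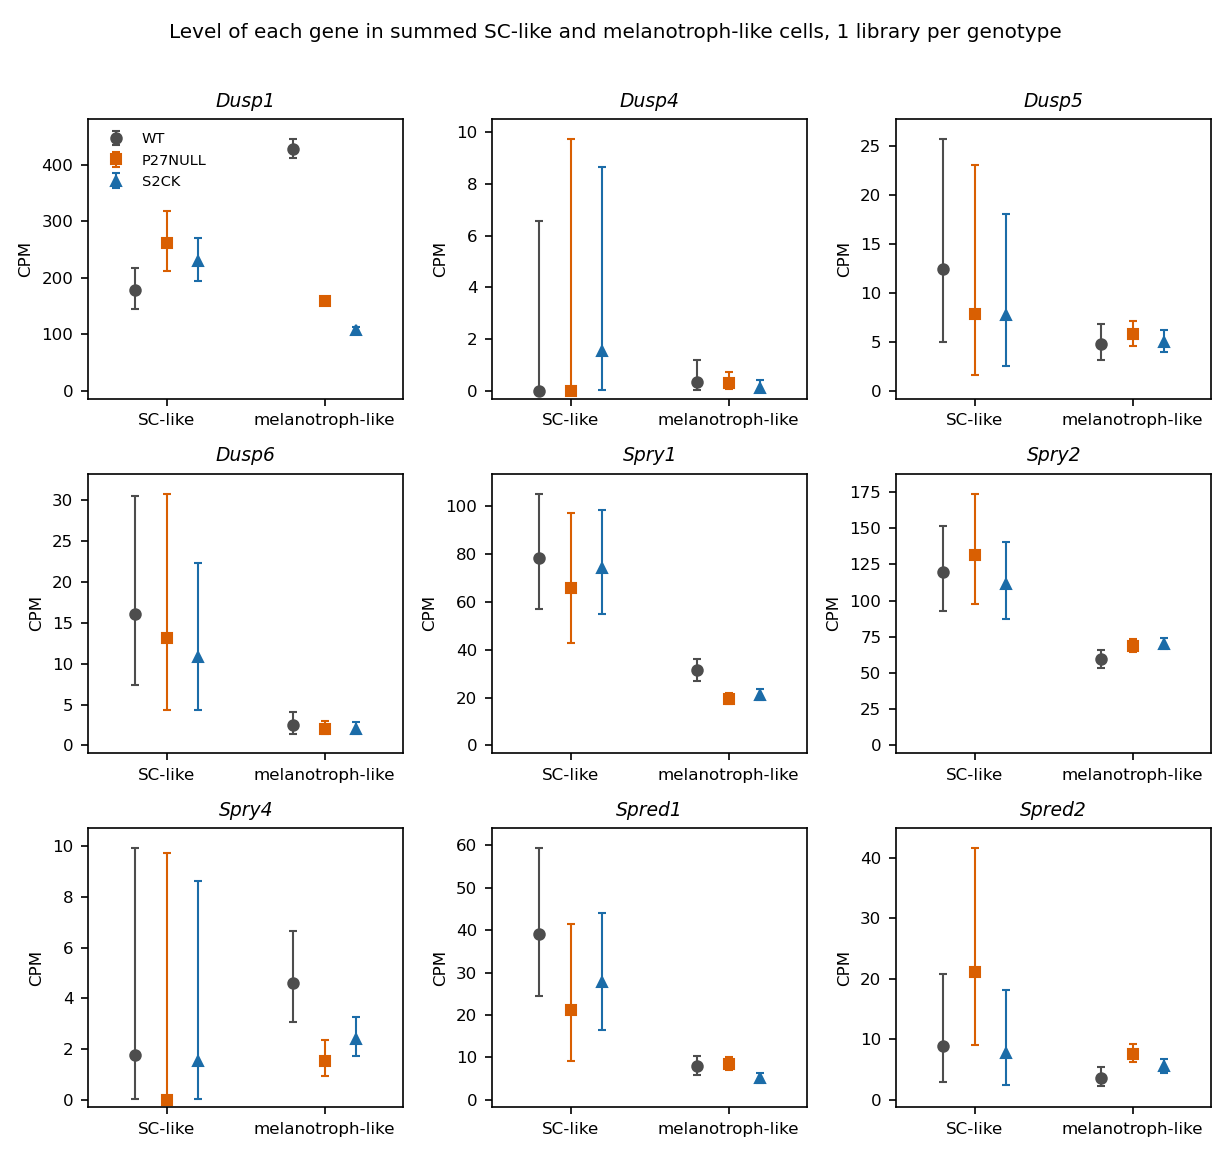
Level in CPM (y axis, linear, from 0) of each of the 9 genes in the summed SC-like and melanotroph-like cells (x axis) of WT, P27NULL and S2CK. Points are single libraries and bars are exact 95% Poisson intervals. Dusp1 in melanotroph-like cells stands at 428 CPM in WT and at 159 and 108 CPM in the other libraries, while Spry1, Spry2, Spred1 and Dusp6 lie higher in SC-like than in melanotroph-like cells of every library.

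The difference between the 2 cell types could be tested, since each library held both. With library as a block, 4 of the 7 genes that passed the filter on low counts were higher in SC-like cells and 0 were lower (edgeR's quasi-likelihood test, Benjamini-Hochberg adjusted p under 0.05). Of all 12017 genes tested, 21.5% were called higher in SC-like cells and 21.7% lower. Dusp6, the cytoplasmic ERK phosphatase, differed by a log2 fold change of 2.35 (edgeR adjusted p = 1.4e-04), Spred1 by 1.86 (7.7e-07), Spry1 by 1.39 (1.1e-08) and Spry2 by 0.63 (4.8e-04). All 4 were higher in SC-like cells of 3 of 3 libraries, and the mean log2 ratio of CPM within a library was 2.60 ± 0.17 for Dusp6, 2.03 ± 0.62 for Spred1, 1.63 ± 0.27 for Spry1 and 0.87 ± 0.18 for Spry2 (SD, n = 3 libraries). The Dusp6 values rest on only 9, 5 and 7 UMIs in the SC-like cells of WT, P27NULL and S2CK. When each cell was thinned to 1000 UMIs, Spry2 was no longer called (edgeR log2 fold change 0.26, adjusted p = 0.58), and Dusp6 had too few UMIs to pass the filter and was not tested. Dusp5 and Spred2 did not pass the test (edgeR log2 fold changes 0.63 and 0.86, adjusted p = 0.32 and 0.13). Dusp4 and Spry4 were too rare to be tested.

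**Figure D2:**
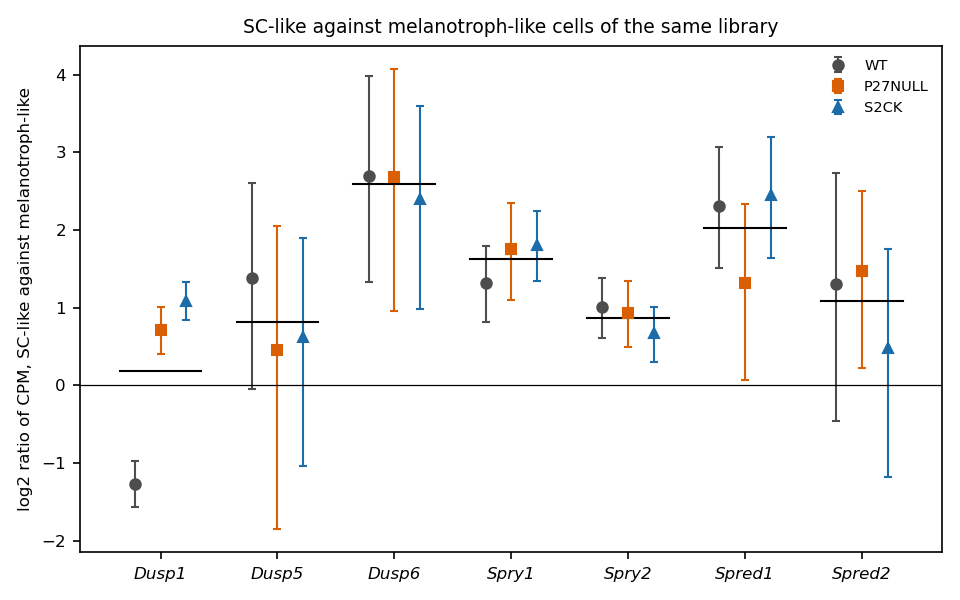
Log2 ratio of CPM between SC-like and melanotroph-like cells of the same library (y axis) for the 7 genes tested (x axis). Points are libraries, bars exact 95% counting intervals and horizontal lines means over the 3 libraries. The points of Spry1, Spry2, Spred1 and Dusp6 lie above 0 in every library, whereas Dusp1 lies at -1.26 in WT and at 0.71 and 1.09 in P27NULL and S2CK.

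Dusp1 was the exception to this pattern. It encodes a nuclear phosphatase of ERK, p38 and JNK, and lies on chromosome 17 (GRCm38.p6, 26505591 to 26508472). Its log2 ratio between SC-like and melanotroph-like cells was -1.26 [-1.57, -0.97] in WT, 0.71 [0.41, 1.0] in P27NULL and 1.09 [0.84, 1.33] in S2CK. It was thus lower in SC-like cells of WT and higher in those of the other libraries, and over the 3 libraries it was not called (edgeR log2 fold change -0.04, adjusted p = 0.98). The fold change with 1 library left out was -0.57 without S2CK and -0.30 without P27NULL (edgeR adjusted p = 0.79 and 0.91). Without WT, the library of opposite sign, it was 0.65 (edgeR adjusted p = 5.9e-04), so that the direction rests on WT.

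Melanotroph-like cells had the wider range between libraries. Dusp1 was counted there at 428 CPM [412, 445] in WT, against 159 CPM [153, 166] for P27NULL and 108 [103, 113] for S2CK. The 3 intervals do not overlap, and WT was the highest. Relative to WT, the log2 ratio of P27NULL was -1.43 [-1.51, -1.34] and that of S2CK -1.99 [-2.08, -1.90], both past the fold rule. For S2CK against P27NULL it was -0.56 [-0.65, -0.47], less than 1.5-fold, but -0.72 [-0.92, -0.53] and past the rule with cells thinned to 1000 UMIs. At least 1 Dusp1 UMI was found in 70.6% (WT), 32.5% (P27NULL) and 34.4% (S2CK) of melanotroph-like cells, at median depths of 4163, 2826 and 5022 UMIs. With each cell thinned to 1000 UMIs (26 WT cells were shallower and left out, and none of the other libraries) the shares were 31.3% [28.7, 33.9], 14% [12.9, 15.2] and 9.47% [8.45, 10.6]. Thinned cells with 3 or more Dusp1 UMIs made up 2.0%, 0.566% and 0.166%. T or NK cells had the lowest mean of the cell types, 26.9 CPM from 4 UMIs. In WT, P27NULL and S2CK, 1 of 31, 0 of 15 and 0 of 28 of them had a Dusp1 UMI. Their median depths were 1282, 1439 and 1761.5 UMIs. So few cells do not measure a background for the shares above.

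Within libraries the level was spread over the melanotroph-like clusters of at least 50 cells. It ranged from 392 to 482 CPM over the 5 clusters of WT, from 104 to 228 CPM over the 7 of P27NULL and from 80.8 to 133 CPM over the 10 of S2CK. No cluster of P27NULL or S2CK reached the lowest cluster of WT. These clusters are groups of cells of 1 library and not replicates.

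P27NULL offered a look at the spread within a genotype, since its pool held cells of both sexes. Dusp1 stood at 262 CPM [244, 282] in its 638 melanotroph-like cells with Xist and no Y-linked UMI, and at 132 CPM [125, 139] in the 2884 without Xist, a log2 ratio of 0.99 [0.86, 1.12]. Fos, the classic immediate early gene, was also higher in the first, at 1310 and 695 CPM. Spry1 (18.6 and 19.8 CPM) and Spry2 (66.4 and 68.4 CPM) had overlapping intervals in the 2 sets of cells. Sex cannot be told apart from the animals of the pool here. The difference of Dusp1 within P27NULL was larger than that between S2CK and P27NULL, and smaller than that between P27NULL and WT. With only the cells without Xist, P27NULL against WT gave -1.70 [-1.79, -1.60], and S2CK against the Xist cells of P27NULL gave -1.28, which is past the fold rule.

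**Figure D3:**
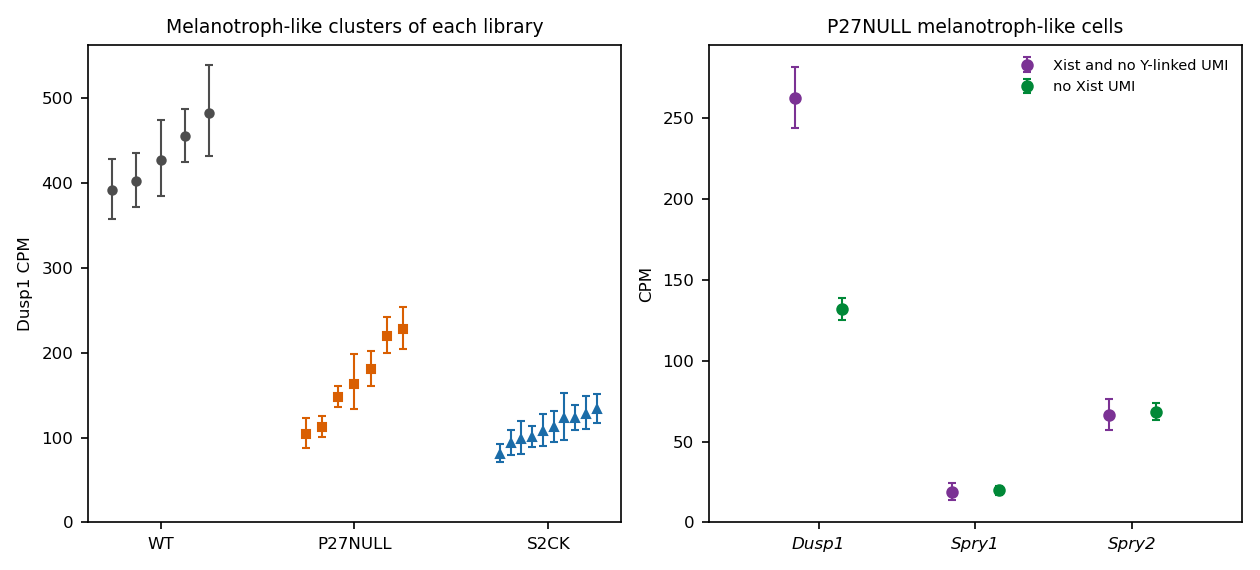
Left, Dusp1 in CPM (y axis, from 0) in each melanotroph-like cluster of WT, P27NULL and S2CK (x axis, clusters in order of level). Right, Dusp1, Spry1 and Spry2 in CPM in P27NULL melanotroph-like cells with Xist and no Y-linked UMI and in those without Xist. Bars are exact 95% Poisson intervals. The WT clusters lie between 392 and 482 CPM, above every cluster of the other libraries, and Dusp1 alone of the 3 genes differs between the 2 sets of P27NULL cells, at 262 and 132 CPM.

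In SC-like cells Dusp1 lay the other way, with levels of 178 CPM [145, 217] in WT, against 261 CPM [212, 318] for P27NULL and 229 [194, 269] for S2CK. WT was the lowest, but its interval overlaps those of the other libraries. The log2 ratio of P27NULL against WT was 0.55 [0.13, 0.97], just under 1.5-fold, that of S2CK against P27NULL -0.19 [-0.56, 0.20] and that of S2CK against WT 0.36 [-0.01, 0.74]. Dusp1 of broken cells could account for up to 66.9 CPM of the level in WT SC-like cells, against 16.7 and 16.2 CPM in P27NULL and S2CK. With this bound subtracted, an alternative chosen after seeing the data, the ratios to WT became 1.0 for P27NULL and 0.88 for S2CK, both past the fold rule. Leaving out the cells ranked likeliest to be doublets also put P27NULL against WT past it. That ranking used the scores of Scrublet, a doublet finder that did not work on these libraries. By cell, 24.5%, 28.6% and 36.3% of SC-like cells had a Dusp1 UMI at median depths of 2038, 2275 and 3551 UMIs. Thinned to 1000 UMIs per cell the shares were 10.9% [6.11, 17.7], 14.3% [8.22, 22.5] and 9.89% [4.62, 17.9], with overlapping intervals.

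Dusp1 was also found in the other cell types. Its mean over 3 libraries was 237 ± 24.6 CPM (SD) in vascular cells, 229 ± 43.4 in corticotrophs, 157 ± 36.7 in an unnamed cluster led by MHC class II genes and 139 ± 74.8 in gonadotrophs. No neighbours in this order differed beyond their range, melanotroph-like cells (232 ± 172 CPM) and SC-like cells (223 ± 41.8 CPM) included. In corticotrophs, the other cells that express Pomc, Dusp1 was measured at 216, 277 and 193 CPM for WT, P27NULL and S2CK, and the log2 ratio of P27NULL against WT was 0.36 [-0.08, 0.79]. In gonadotrophs it stood at 82.9, 224 and 110 CPM, highest in P27NULL, with a log2 ratio of 1.43 [0.82, 2.09] against WT. Vascular cells held 214, 234 and 263 CPM, with ratios whose intervals include 0. Connective tissue held 194, 91.1 and 91.3 CPM, and S2CK against WT was past the fold rule there (-1.09, -2.20 to -0.04), from 13 and 22 UMIs. These cell types also held markers of others. The gonadotroph list reached 10331, 1069 and 1271 CPM in corticotrophs of WT, P27NULL and S2CK, against 904, 956 and 1190 CPM for their own list. In vascular cells it reached 13173, 78.2 and 136 CPM, against 8614, 6331 and 7098 CPM for the endothelial list. The list for red blood cells reached 33.0, 25496 and 10247 CPM in vascular cells of WT, P27NULL and S2CK. Their part in the values was not tested.

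**Figure D4:**
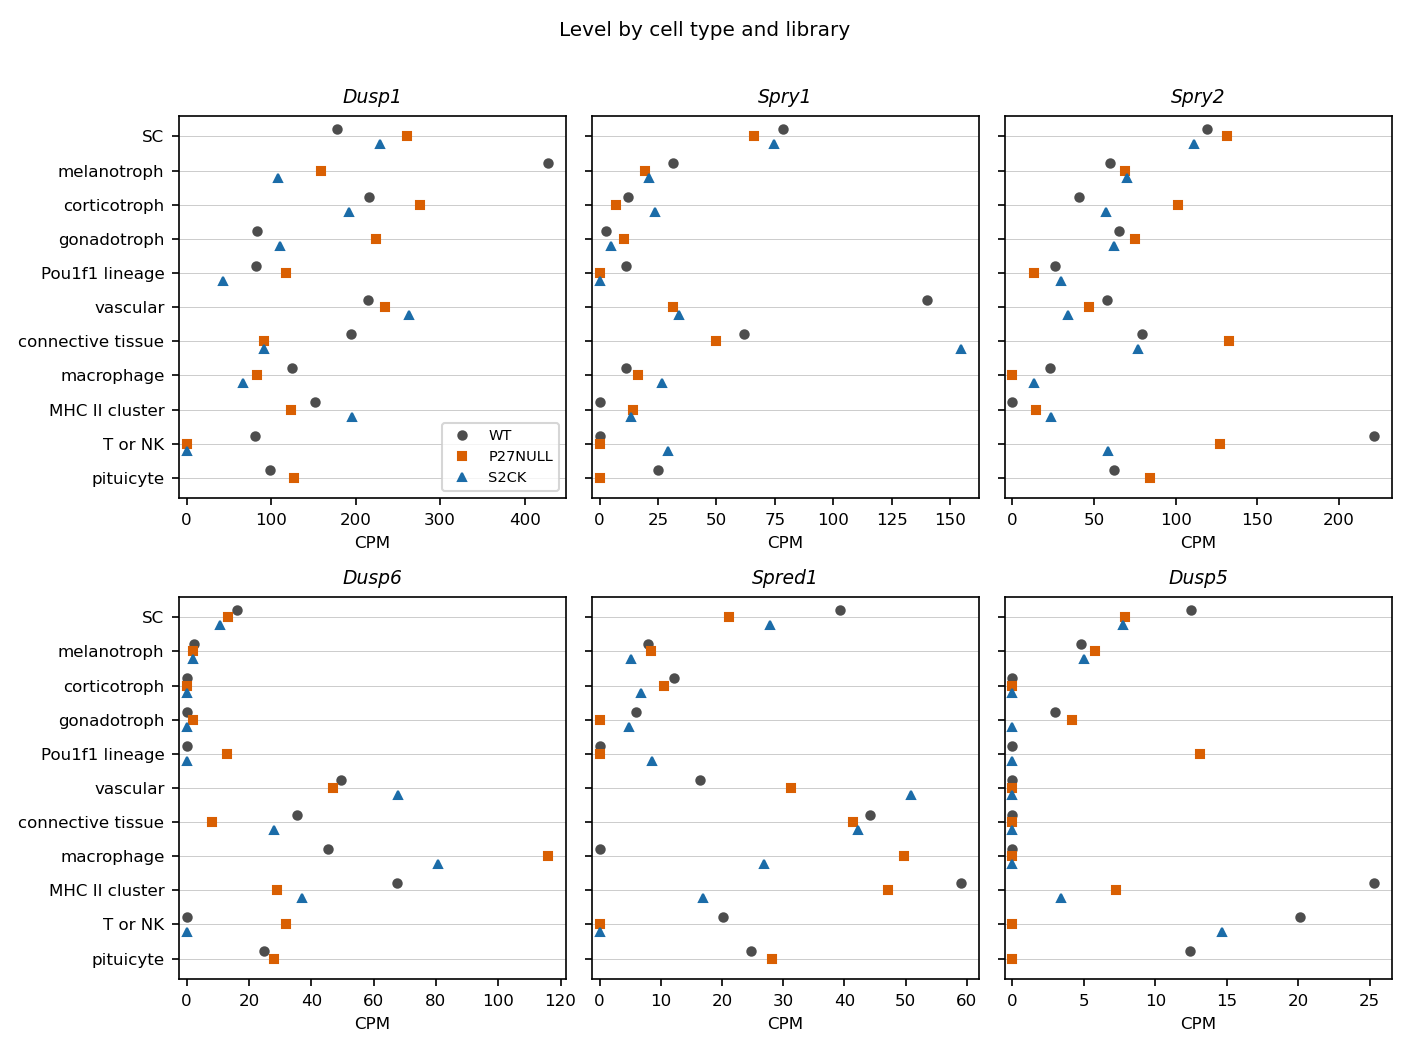
Level in CPM (x axis, linear, from 0) of Dusp1, Spry1, Spry2, Dusp6, Spred1 and Dusp5 in each named cell type or cluster (y axis) of WT, P27NULL and S2CK. Points are single libraries, and S2CK has no point for pituicytes, since 9 of its cells that grouped with them in the joint clustering were counted as SC-like. Dusp6 has its highest mean in macrophages, at 45.5 to 116 CPM by library, and no UMI was counted for it in corticotrophs. Spry1 has its highest mean in connective tissue, at 88.7 CPM.

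Dusp1 was detected more often in cells that also held Fos. Among thinned melanotroph-like cells, Dusp1 was found in 32.8% of those with a Fos UMI and 28.4% of those without in WT, in 22.2% and 7.50% in P27NULL and in 14% and 7.53% in S2CK. The intervals overlap in WT (29.6 to 36.2 and 24.2 to 32.9) and not in the other libraries. In P27NULL the gap was found in cells with Xist (27.1% and 10.1%) and in cells without (20.4% and 7.13%). Among thinned SC-like cells the shares were 17.9% and 7.87% in WT, 25.5% and 3.70% in P27NULL and 26.9% and 3.08% in S2CK, resting on 7 to 13 cells with both transcripts per library. Here too the intervals overlap in WT (7.54 to 33.5 and 3.22 to 15.5) and not in the other libraries. Spry2 had no such gap in melanotroph-like cells (5.90% and 5.23% in WT, 5.64% and 6.59% in P27NULL, 6.24% and 7.30% in S2CK). In SC-like cells its shares were 12.8% and 6.74%, 13.7% and 9.26%, and 3.85% and 6.15%. Those of Spry1 in SC-like cells were 7.69% and 4.49%, 13.7% and 5.56%, and 11.5% and 3.08%. All these SC-like intervals of Spry1 and Spry2 overlap. Cells of 1 library are not replicates, and these shares were not tested.

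The sequence just before the start site is given for Dusp1 and for the Sprouty genes with most UMIs, Spry1, which like Dusp1 was lower in P27NULL than in WT melanotroph-like cells, and Spry2, which was not. RefSeq promoter entries (GRCm38.p6) matched 7 of the 9 genes. The 250 bases before each start were searched on both strands for the cAMP response element (CRE, TGACGTCA), the AP-1 motif (TGANTCA), an ETS motif (CCGGAAGT), the GC box (GGGCGG) and the CArG box of serum response factor. Capitals mark the matches.
Dusp1, minus strand, chr17:26508473-26508722: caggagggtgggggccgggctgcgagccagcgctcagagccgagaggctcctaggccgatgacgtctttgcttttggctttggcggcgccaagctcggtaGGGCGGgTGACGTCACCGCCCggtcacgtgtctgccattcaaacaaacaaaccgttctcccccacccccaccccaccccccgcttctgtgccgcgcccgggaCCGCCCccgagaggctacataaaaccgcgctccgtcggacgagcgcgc
Spry1, plus strand, chr3:37639697-37639946: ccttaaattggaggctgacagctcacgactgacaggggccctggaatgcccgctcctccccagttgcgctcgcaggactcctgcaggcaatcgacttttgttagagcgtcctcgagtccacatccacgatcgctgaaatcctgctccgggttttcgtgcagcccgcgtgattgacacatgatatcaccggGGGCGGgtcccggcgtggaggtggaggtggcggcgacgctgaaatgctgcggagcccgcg
Spry2, minus strand, chr14:105896820-105897069: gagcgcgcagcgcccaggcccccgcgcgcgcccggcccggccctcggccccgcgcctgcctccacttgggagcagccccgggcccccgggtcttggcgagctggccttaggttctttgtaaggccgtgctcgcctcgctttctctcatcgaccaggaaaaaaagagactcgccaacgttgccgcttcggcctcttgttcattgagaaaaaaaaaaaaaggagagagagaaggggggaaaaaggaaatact
The Dusp1 window held a CRE from -143 to -136 relative to the start, a GC box that begins with the base after it and 2 further GC boxes. Of all 32841 such windows, 1.55% held a CRE and 32.7% a GC box. The Spry1 window held 1 GC box and the Spry2 window none of the 5 motifs. Of the other windows, Dusp5 held a GC box and 2 CArG boxes side by side, Spred1 2 GC boxes, Spred2 1 and Dusp6 none of the motifs. At least 1 CArG box was found in 1.47% of all windows. No window of the 7 genes held the AP-1 motif (6.75% of all windows) or the ETS motif (2.88%). A match is a run of letters and does not show that a factor binds there.

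The other phosphatases were rare. Dusp5 encodes a nuclear phosphatase specific to ERK. It stood at 12.5, 7.91 and 7.75 CPM in SC-like cells, from 7, 3 and 5 UMIs, and at 4.77, 5.77 and 5.03 CPM in melanotroph-like cells of WT, P27NULL and S2CK. The melanotroph-like values differed by less than their counting intervals, with log2 ratios of 0.28 [-0.35, 0.94], -0.20 [-0.66, 0.26] and 0.08 [-0.54, 0.74] for P27NULL against WT, S2CK against P27NULL and S2CK against WT. Dusp6 stood at 16.0, 13.2 and 10.8 CPM in SC-like and 2.47, 2.04 and 2.05 CPM in melanotroph-like cells, with intervals that overlap between libraries in both cell types. Its highest mean was in macrophages (80.7 ± 35.3 CPM, SD over 3 libraries), then vascular cells (54.8 ± 11.5) and the MHC class II cluster (44.5 ± 20.3), whose ranges overlap. All 3 lay above the pituicytes (24.8 and 28.2 CPM), but the MHC class II cluster reached down to 29.0 CPM. These values rest on 17, 17 and 27 UMIs, and on 4 in pituicytes, too few to give an order. No Dusp6 UMI was found in corticotrophs, whose sums held 490075, 285426 and 295847 UMIs in WT, P27NULL and S2CK. That depth is too low to place them below melanotroph-like cells. Dusp4, a further nuclear phosphatase, had 2, 4 and 2 UMIs in melanotroph-like cells and 0, 0 and 1 in SC-like cells, too few to compare. A count of 0 allows up to 5.35 CPM in the SC-like cells of WT and 7.91 CPM in those of P27NULL.

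Spry1, an inhibitor of receptor signalling to Ras on chromosome 3 (37639947 to 37644599), stood at 78.4 CPM [57.0, 105], 65.9 CPM [42.6, 97.3] and 74.4 CPM [54.9, 98.6] in SC-like cells of WT, P27NULL and S2CK. The log2 ratios there were -0.25 [-1.02, 0.49], 0.17 [-0.55, 0.93] and -0.08 [-0.70, 0.55] for P27NULL against WT, S2CK against P27NULL and S2CK against WT. Melanotroph-like cells of the same libraries held less, at 31.4 CPM [27.1, 36.2], 19.5 CPM [17.2, 22.0] and 21.3 CPM [19.2, 23.6]. In melanotroph-like cells WT was the highest, its interval apart from the others. P27NULL against WT gave a log2 ratio of -0.69 [-0.96, -0.41], past the fold rule. S2CK against WT gave -0.56 [-0.82, -0.30], short of 1.5-fold, but -0.60 [-0.87, -0.34] and past the rule with joint clustering, which grouped 91 (WT), 44 (P27NULL) and 17 (S2CK) of the melanotroph-like cells with corticotrophs. The ratio of S2CK against P27NULL was 0.13 [-0.10, 0.36]. When cells were thinned to 1000 UMIs the ratio of P27NULL against WT was -0.38 [-1.03, 0.30] and no longer past the rule. Spry1 was also high in connective tissue, at 61.8, 49.7 and 155 CPM, and in vascular cells, at 140, 31.3 and 34.0 CPM. These rest on 2 to 22 UMIs per library, and the library with the highest value was S2CK in the first and WT in the second.

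Spry2, a Sprouty gene on chromosome 14 (105891947 to 105896819), had no ratio past the fold rule in SC-like or melanotroph-like cells. It was measured at 119 CPM [92.5, 152], 132 CPM [97.8, 174] and 112 CPM [87.3, 141] in SC-like cells, with log2 ratios of 0.14 [-0.42, 0.69], -0.24 [-0.78, 0.31] and -0.10 [-0.60, 0.40]. Melanotroph-like cells held 59.5 CPM [53.5, 66.0], 68.8 CPM [64.5, 73.3] and 70.1 CPM [66.2, 74.2], with 362, 942 and 1199 UMIs behind the values. WT was the lowest of the 3, by a log2 ratio of 0.21 [0.03, 0.39] for P27NULL and 0.24 [0.07, 0.41] for S2CK, both under 1.5-fold. S2CK and P27NULL differed by 0.03 [-0.10, 0.15]. Corticotrophs held 40.8, 102 and 57.5 CPM, with a log2 ratio of 1.32 [0.44, 2.22] for P27NULL against WT. The order of the cell types began with T or NK cells (136 ± 81.8 CPM, SD over 3 libraries) and SC-like cells (121 ± 10.2), which do not differ beyond their range. Melanotroph-like cells, at 59.5 CPM or more, lay above the vascular cells (46.2 ± 11.9 CPM, at most 57.7). The vascular values rest on 14 UMIs, too few to give an order, and macrophages had 3 UMIs in all. By cell, Spry2 was found in 30.9%, 29.5% and 38.5% of SC-like and in 23.1%, 19.9% and 29.6% of melanotroph-like cells, against 2 of 51, 0 of 26 and 1 of 32 macrophages at median depths of 1539, 1824 and 1835 UMIs.

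Spry4, on chromosome 18, was in melanotroph-like cells at 4.60 CPM [3.06, 6.65] in WT, against 1.53 CPM [0.95, 2.34] for P27NULL and 2.40 [1.72, 3.25] for S2CK, from 28, 21 and 41 UMIs. WT was again the highest, and its interval overlaps only that of S2CK. Relative to WT, P27NULL had a log2 ratio of -1.59 [-2.47, -0.72] and S2CK of -0.94 [-1.67, -0.19], both past the fold rule, and 0.65 [-0.15, 1.48] for S2CK against P27NULL. With thinned cells Spry4 was under the minimum of 20 UMIs in every comparison. SC-like cells held 1, 0 and 1 UMIs. The highest mean was in vascular cells (16.2 ± 16.5 CPM), from 5 UMIs.

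Spred1 and Spred2 encode membrane proteins that restrain signalling from Ras. Spred1 stood at 39.2 CPM [24.6, 59.4], 21.1 CPM [9.10, 41.6] and 27.9 CPM [16.5, 44.1] in SC-like cells of WT, P27NULL and S2CK, with overlapping intervals. The log2 ratio of P27NULL against WT was -0.89 [-2.27, 0.33], an interval too wide at this depth to give a direction. Melanotroph-like cells held 7.89, 8.47 and 5.09 CPM, lowest in S2CK, with log2 ratios of 0.10 [-0.39, 0.62], -0.74 [-1.15, -0.32] and -0.63 [-1.16, -0.09] for P27NULL against WT, S2CK against P27NULL and S2CK against WT. The last 2 were past the fold rule. S2CK against WT was no longer past it with TMM factors, Leiden resolution 2, joint clustering or thinned cells, and S2CK against P27NULL neither with thinned cells nor with only the Xist cells of P27NULL. Connective tissue (42.6 ± 1.42 CPM), the MHC class II cluster (41.0 ± 21.7) and vascular cells (32.9 ± 17.3) stood beside SC-like cells (29.4 ± 9.15) without differing beyond their ranges.

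Spred2 was the 1 gene of the 9 past the fold rule upwards in melanotroph-like cells. Its level was 3.62 CPM [2.27, 5.47] in WT, against 7.60 CPM [6.21, 9.20] for P27NULL and 5.56 [4.50, 6.79] for S2CK, from 22, 104 and 95 UMIs. P27NULL was the highest, with a log2 ratio of 1.07 [0.40, 1.81] against WT, past the fold rule. With cells thinned to 1000 UMIs it was 0.57 [-0.87, 2.34] and no longer past it. S2CK against P27NULL gave -0.45 [-0.87, -0.04] and S2CK against WT 0.62 [-0.06, 1.36], neither past the rule, although thinning put the first at -1.84 [-3.60, -0.39] and past it. In SC-like cells Spred2 had 5, 8 and 5 UMIs, too few to read a ratio.

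**Figure D5:**
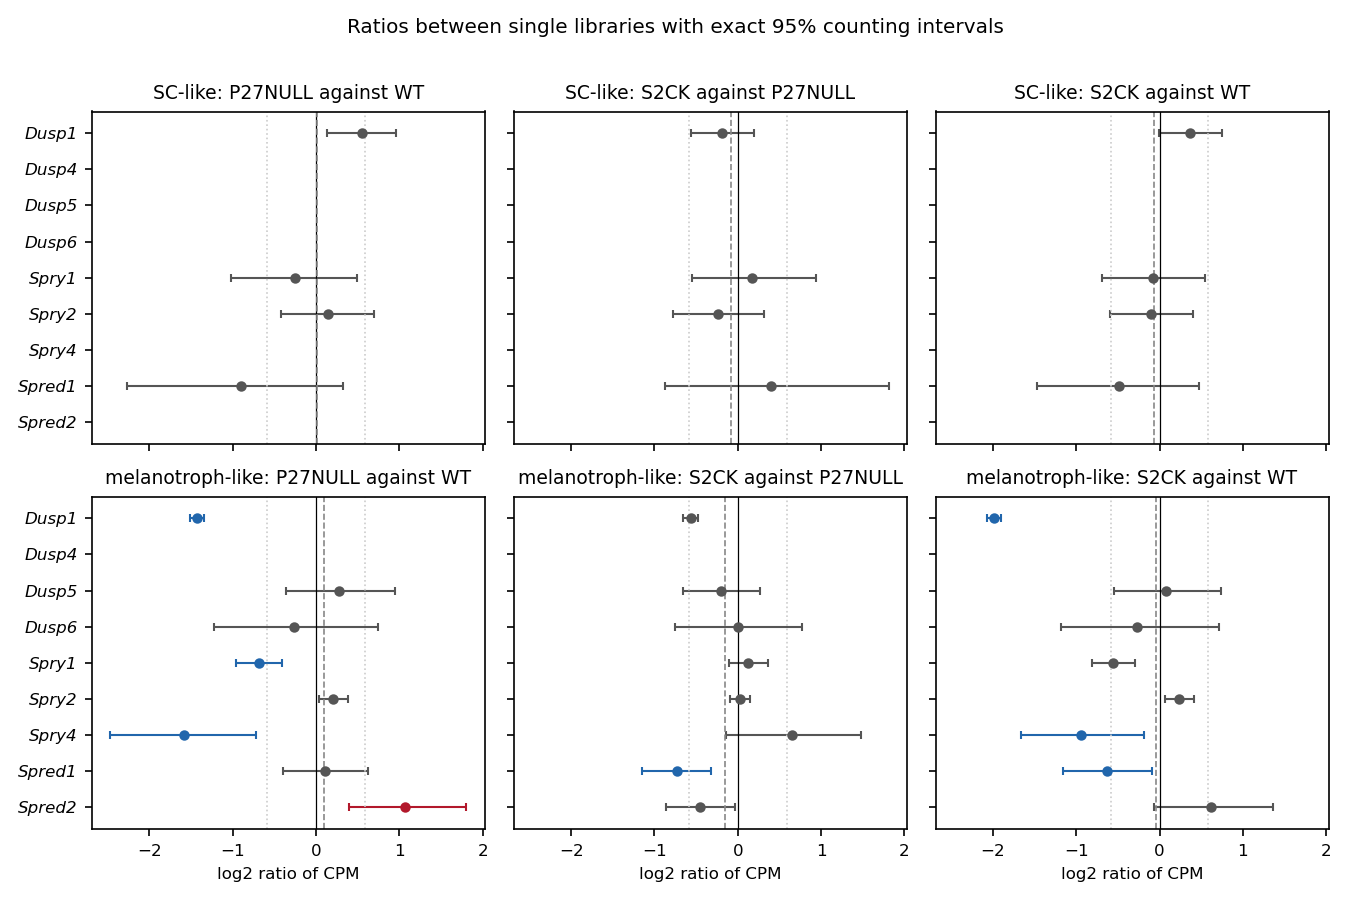
Log2 ratio of CPM between 2 libraries (x axis) for each gene with at least 20 UMIs (y axis), in SC-like cells (top) and melanotroph-like cells (bottom). Bars are exact 95% counting intervals, red and blue points are past the fold rule, dotted lines mark 1.5-fold and the dashed line the median of all genes. In SC-like cells no point is coloured, and in melanotroph-like cells Dusp1 lies at -1.43 (P27NULL) and -1.99 (S2CK) relative to WT.

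By count, none of the genes measured in SC-like cells was past the fold rule. With P27NULL set against WT, 0 of 4 genes were higher or lower, where 4.64% of all genes were higher and 2.79% lower. For S2CK against P27NULL it was 0 of 4, against 5.72% higher and 9.17% lower, and for S2CK against WT 0 of 4, against 6.01% and 7.83%. The median log2 ratios of the 4 genes were -0.05, -0.01 and -0.09, beside medians over all genes of 0.01, -0.08 and -0.07. In melanotroph-like cells, P27NULL against WT had 1 of 8 genes higher (Spred2) and 3 of 8 lower (Dusp1, Spry1 and Spry4), where 6.85% of all genes were higher and 2.61% lower. S2CK against P27NULL had 0 higher and 1 lower (Spred1), against 3.73% and 13%. S2CK against WT had 0 higher and 3 lower (Dusp1, Spry4 and Spred1), against 5.12% and 7.53%. The medians of the 8 genes were -0.08, -0.10 and -0.41, beside 0.10, -0.16 and -0.04 over all genes. The comparisons with WT share its library, as do those with P27NULL.

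The genes above and beside the 9 in the pathway were described from lists. The lists were drawn up with earlier results of these data known. In SC-like cells 4.64% of all genes were higher and 2.79% lower for P27NULL against WT. For S2CK against P27NULL it was 5.72% and 9.17%, and the counts below are to be read beside these shares. In SC-like cells, of the immediate early genes, 11 of 14 were higher and 0 lower in P27NULL than in WT, led by Atf3 (224 against 19.6 CPM, log2 ratio 3.51), Fosb (1.91) and Klf4 (1.79), and Fos was measured at 788 CPM for WT, 1959 for P27NULL and 750 for S2CK. In S2CK against P27NULL 9 of 14 were lower and 0 higher, led by Nr4a1 (-1.57), Atf3 (-1.53) and Ier2 (-1.51). Dusp1 had -0.19 there. Of the ERK-induced genes, 4 of 11 met the minimum, and Egr1 alone was higher in P27NULL than in WT (577 against 253 CPM, 1.19). In S2CK against P27NULL Egr1 was lower (-1.20) and Ier3 higher (0.87). The ERK cascade had 1 gene higher and 1 lower of 14 in P27NULL against WT, the lower one the Ras gene Hras (-0.73), and 0 higher and 2 lower of 15 in S2CK against P27NULL, the Ras inhibitor Rasa1 (-1.14) and the kinase Map2k2 (-0.62). Of the growth factor ligands (2 and 4 of 16 measured), receptors (5 and 7 of 14), other dual-specificity phosphatases (1 and 2 of 8) and other feedback inhibitors (2 and 3 of 5), none was past the fold rule in these 2 comparisons. Heat shock genes had 1 higher (Dnajb1, 1.12) and 1 lower (Hspb1, -1.13) of 9, and then 0 higher and 3 lower of 8, with Dnajb1 at -1.77, Hspd1 at -0.89 and Hspb1 at -0.82.

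In melanotroph-like cells 6.85% of all genes were higher and 2.61% lower for P27NULL against WT. For S2CK against P27NULL it was 3.73% and 13%, and the counts here are to be read beside these shares. With P27NULL set against WT, the ERK-induced genes had 0 higher and 2 lower of 9. These were the cell cycle gene Ccnd1 (6.43 against 56.4 CPM, log2 ratio -3.13) and Ier3 (-0.97). The immediate early genes had 0 higher and 2 lower of 13, Nr4a1 (-1.20) and Junb (-0.91), while Fos was measured at 1227 CPM for WT, 824 for P27NULL and 446 for S2CK. In S2CK against P27NULL, 6 of 9 ERK-induced genes were lower and 1 higher, with Ccnd1 at -1.87, the ETS factor gene Etv5 at -1.61 and Egr2 at -1.44. Of the immediate early genes, 6 of 13 were lower and 0 higher, with Atf3 at -2.42, Fosb at -2.21 and Klf4 at -1.77. The ERK cascade had 1 of 19 higher, the Ras activator Sos1 (0.60), and then 2 of 19 lower, Sos1 (-0.81) and the kinase Map2k1 (-0.77). Among ligands, Igf1 was higher and then lower (1.39 and -1.16) and Fgf1 lower (-0.71) in P27NULL than in WT. The receptor gene Fgfr4 (-0.81) and the phosphatase gene Dusp3 (-0.83) were lower in S2CK than in P27NULL, and the other feedback inhibitors had 0 of 4 past the rule in both comparisons. Heat shock genes had 2 of 11 lower, Hspa1a (-0.88) and Hspb1 (-0.59), and then 3 of 11 lower, Hspa1b (-1.85), Hsph1 (-1.55) and Hspa1a (-0.66). For S2CK against WT, 9 of 13 immediate early genes and 5 of 9 ERK-induced genes were lower in melanotroph-like cells, and 0 higher, while in SC-like cells 2 of 14 and 1 of 4 were higher and 0 lower. Of all genes, 7.53% were lower in that comparison in melanotroph-like cells and 6.01% higher in SC-like cells.

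The genes of the lists were also tested between the cell types, but no list was tested as a set. Over all genes tested, 21.5% were called higher in SC-like cells and 21.7% lower, and the counts below are to be read beside these shares. Of 10 receptors tested, 8 were higher in SC-like than in melanotroph-like cells and 1 lower, with log2 fold changes of 8.16 for Fgfr1 and 4.06 for Egfr and -2.76 for Kit (edgeR adjusted p = 1.6e-36, 7.2e-12 and 1.7e-14). Of the growth factor ligands 5 of 6 were higher and 0 lower, and of the other feedback inhibitors 2 of 4 were higher, Lrig1 (2.45) and Il17rd (1.64), with 0 lower. The ERK cascade itself had 6 of 19 higher and 2 lower, the other dual-specificity phosphatases 1 of 5 higher and 2 lower, and the ERK-induced genes 1 of 9 higher and 2 lower. Immediate early genes had 6 of 14 higher and 1 lower, and heat shock genes 2 of 11 higher and 6 lower.

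Finally, the pattern of each gene over cell types and libraries was compared with that of 9307 or 9308 others, over 30 sums of 1 cell type in 1 library, by Pearson's r of log2(CPM + 1). The sums of 1 library share its depth and its free RNA, and the values describe these libraries only. Most like Dusp1 were Smad2 (r = 0.89), Fnbp1l (0.89) and Stag1 (0.88), most like Spry2 Pde4dip (0.88), Chd2 (0.86) and Mrps16 (0.86), and most like Spry1 Abca3 (0.84), Pttg1ip (0.79) and Rbm15b (0.76). Dusp6 was closest to Selenop (0.89), Gpx1 (0.89) and Rnf130 (0.87), and Spry4 to Serping1 (0.73), Rgs5 (0.68) and Abcg2 (0.68). Spred1 was closest to Fcgrt (0.75), Spred2 to Cpeb1 (0.70), Rbm45 (0.68) and Iars (0.68), and Dusp5 to Slc35c1 (0.67), Thsd7b (0.66) and E030030I06Rik (0.63). Among the 9 genes themselves, the pairs most alike were Dusp6 with Spred1 (r = 0.56) and Spry1 with Spry4 (0.54). Dusp1 had r between -0.17 and 0.35 with the other 8.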

How the data were processed

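Cells of the IL were dissociated with papain and made into 3 libraries with a 10x Genomics 3′ kit by the authors, who derived UMI counts with Cell Ranger 3.0.2 (aligner STAR 2.5.1b) on mm10. According to their methods, cells with few genes or over 10% mitochondrial reads were removed. The deposited tables hold raw counts, with no normalization. Their lowest cells differ: 502 UMIs and 213 genes in WT, 1005 and 502 in P27NULL and 1002 and 517 in S2CK. This difference goes with genotype. With only cells of at least 1000 UMIs, the same genes were past the fold rule in melanotroph-like cells.

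Each library was clustered alone with settings of the methods (10000 per cell, 2000 variable genes, 20 components), 20 neighbours and Leiden resolution 1 (scanpy 1.11.5). To be named, a cluster had to show 3 of a type's markers, a relative marker level of 0.3 and a lead of 0.1 over the next type, limits set after the data were seen. The remaining cell types came from a joint clustering. No doublets were removed, since Scrublet marked 9, 1 and 1 cells of WT, P27NULL and S2CK and so did not work. The alternative without likely doublets left out the 33, 138 and 97 cells with the highest Scrublet scores, and shares this limit. The 9 genes and the lists were chosen with earlier results of these data known.

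Sums of counts over the cells of a type in 1 library gave all levels, and ratios had exact conditional intervals. SC-like and melanotroph-like sums were compared with edgeR 4.0.16 (R 4.3.3) and library as a block, n = 3. The libraries are of different genotypes, so their spread includes genotype. Named were the 9 genes, the 3 genes most like each one that had at least 100 UMIs, and up to 3 genes per list with the largest ratios past the fold rule. Some of the genes this rule names are not reported here. Positions and promoters came from RefSeq tables of GRCm38.p6, where 91.9% of symbols matched. All intervals cover counting error only. Alternatives changed the clustering, filters, scaling, minimum, fold and depth. The steps were tested on simulated counts.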

Additional observations from a re-analysis of the deposited data

Results flagged for a closer look

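Dusp1 had counting intervals above 0 in some cell types and under 0 in others for the same pair of libraries. For P27NULL against WT its log2 ratio was 0.55 in SC-like cells and 1.43 in gonadotrophs, against -1.43 in melanotroph-like cells. For S2CK against P27NULL it was 0.67 in the MHC class II cluster, against -0.56 in melanotroph-like cells, -0.52 in corticotrophs and -1.02 in gonadotrophs. Spry1 did the same for S2CK against WT, at 1.32 in connective tissue, against -0.56 in melanotroph-like and -2.04 in vascular cells. With 1 library per genotype none of these differences between cell types was tested, and the connective tissue and vascular values rest on 29 and 21 UMIs.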

How the results depend on the processing

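In SC-like cells 0 genes were past the fold rule. This became 1 (Dusp1) for P27NULL against WT without likely doublets, which were ranked by the Scrublet scores that did not work. It was also 1 (Dusp1) there and for S2CK against WT with the bound on free RNA subtracted, an alternative chosen after seeing the data. The median ratio for P27NULL against WT became 0.63 with cells thinned to 1000 UMIs, and that for S2CK against P27NULL -0.61 with cells of 1 sex. Both rest on fewer genes than the main setting, since thinning leaves 1000 UMIs in each of 128 WT and 105 P27NULL cells. The value -0.61 is that of Dusp1 itself, from 17 UMIs in the 18 SC-like cells of P27NULL with Xist. In melanotroph-like cells with thinning, 1 gene was past the rule for P27NULL against WT (Dusp1). With S2CK it was 2 against P27NULL (Dusp1 and Spred2, in place of Spred1) and 1 against WT (Dusp1), where a 2-fold limit gave 0 and 1. Thinned sums hold fewer UMIs and weigh cells equally. SC-like against melanotroph-like, thinning left 2 genes higher (Spry1 and Spred1), with Dusp6 not tested. Leaving out each library in turn gave 4 to 5 genes higher and 0 lower, with Dusp1 between -0.57 and 0.65. Dusp1 turned to 0.20 without TMM factors and to 0.65 without WT, and Spred2 was called higher without TMM factors (1.09, edgeR adjusted p = 0.0498). Without TMM factors the median over all genes moved from -0.06 to 0.18 and the share of calls that were higher from 49.8% to 66.5%. Of all genes 5190 were called, against 2149 of 7103 when thinned. DESeq2 and the fit with no replicate block also called 4 genes higher and 0 lower. Depth limits the SC-like values, which rest on 379355 to 645200 UMIs per library. The labels pair no samples. The causes of these shifts were not tested.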
